A study of Drosophila melanogaster with 3 samples.

Results

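Binding of the transcription factor Xbp1 at the promoters of individual genes was examined by ChIP-seq in Drosophila melanogaster, with whole embryos as the material. Of 7291 peaks in the authors' thresholded list (dm6 build), 2127 had their summit within 500 bp of start sites of exactly 1 protein-coding gene, and these are called single-gene promoter peaks. A further 1351 peaks lay within that distance of starts of several genes (shared promoters) and 3813 lay farther from any protein-coding start (distal peaks). The choice used position and not signal. The 3 libraries were biological replicates of 1 group, mixed-sex embryos aged 0 to 24 h of a transgenic line that carries Xbp1 with GFP fused to its C terminus, and the tag was precipitated with an anti-GFP antibody from chromatin sonicated to 200 to 800 bp. There was no second condition. All samples came from 1 line, so a property of that line cannot be told apart from one of Xbp1, and whole embryos mix all cell types, so fewer bound cells and weaker binding per cell cannot be told apart. The control sample was not analysed here, and read depth is unknown.

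Xbp1 is a basic leucine zipper (bZIP) factor of the unfolded protein response. When unfolded proteins gather in the endoplasmic reticulum (ER), the sensor Ire1 starts the splicing of Xbp1 mRNA, and the spliced form encodes a factor that raises expression of ER chaperones, translocation and glycosylation enzymes, degradation factors and vesicle coats. In mammals XBP1 recognises sequences around an ACGTG core, among them the UPR element. Many fly genes have several promoters, each giving a transcript with its own 5' end, while others share a promoter region with a neighbour transcribed the other way. Promoters of broadly used fly genes often hold the DRE, the site of the factor Dref, or Ohler motif 1, the site of M1BP.

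The replicates were not alike. The lists of replicates 1, 2 and 3 held 21686, 30000 and 23357 peaks, and the total of replicate 2 is a round number at which a list may have been truncated. Replicate lists were therefore compared by their 7291 strongest peaks. Across single-gene promoter peaks present in all 3 full lists (n = 2023), Spearman's rho of signal rank was 0.911 between replicates 1 and 3, 0.801 between 1 and 2 and 0.764 between 2 and 3. These values are descriptive, since peaks are not independent. Results below are given for each replicate, so that they can be read with and without replicate 2. With 3 replicates, the exact two-sided sign-flip permutation test used here gives p = 0.25 at the lowest and cannot reach 0.05.

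The sequences that the results turn on are shown here, each read 5' to 3' in the direction of transcription of its gene (Release 6 genome, the dm6 build). The hexamer GACGTG, on either strand, is called the bZIP core. It lay within 50 bp of the summit at 91 of the 2127 peaks (4.28%, exact 95% confidence interval 3.46 to 5.23%), and 25 of those 91 belonged to genes of 6 lists of secretory pathway genes. The 30-base stretches that follow come from 18 of these 25 peaks, those of the other 7 not being shown, with the core in capitals, and are given to show how alike the letters beside the core were.
Hsc70-3 (chrX:11806426-11806455, minus strand): tgatctaccactGACGTGtctttttggccc
Hsc70-3 (chrX:11807157-11807186, minus strand): taaactcatcgaCACGTCagtggtaggtga
Hsc70-3 (chrX:11807446-11807475, minus strand): ctacgcctgcgaCACGTCagtgctagagat
Gp93 (chr3R:27948788-27948817, plus strand): tctgttattcgtGACGTGgcctttcgccgg
Hsc70-3 (chrX:11805638-11805667, minus strand): ggtcgcaaagtaCACGTCagtgtggcatag
CaBP1 (chr2L:16356692-16356721, minus strand): cgcactcgcagtGACGTGtactcttttttt
p24-1 (chrX:11852518-11852547, minus strand): aaagagtgttgaCACGTCagaaccccagac
ergic53 (chr3L:8535201-8535230, plus strand): aagacgcagctcCACGTCagttgttttggc
Sec24CD (chr2L:2236795-2236824, minus strand): aattagggaactGACGTGgaagttcgttta
gammaCOP (chr3R:31572158-31572187, plus strand): gcaccgctgagtGACGTGtaagcgcagcca
Sec23 (chr3R:5649282-5649311, plus strand): ctgtcaatccgtGACGTGgcctgaccgacc
Sec22 (chrX:806090-806119, plus strand): ggacataccggtGACGTGgttacattgcaa
SrpRalpha (chrX:11129054-11129083, minus strand): cgctaggcaagtGACGTGgaacgtgtggca
SsRbeta (chr3L:16129611-16129640, plus strand): gcgaatccattcCACGTCacgaaccaccga
betaCOP (chrX:18385177-18385206, minus strand): ttagcattgtgaCACGTCggaaagaccaaa
GCS2alpha (chrX:21604837-21604866, minus strand): tggggcacgactGACGTGtacattaatttt
Cnx99A (chr3R:29319155-29319184, minus strand): gagaaaaaagtaCACGTCagtggaagctac
Alg9 (chr3R:25221498-25221527, plus strand): cgttactatactCACGTCtacacatatatc

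Read in the direction GACGTG, the core was preceded by T in 23 of these 25 secretory peaks (92.0%). Over all single-gene promoter peaks with a core and enough sequence around it, T preceded it in 56 of 88 (63.6%), and over windows centred 50 bp downstream of every annotated protein-coding start it did so in 143 of 645 (22.2%). The letter after the core was T in 14 and G in 9 of the 25 secretory peaks. With T before and G after, the core becomes the UPR element TGACGTGG, which was present at 20 single-gene promoter peaks (0.940%, interval 0.575 to 1.45%). All 4 single-gene promoter peaks of Hsc70-3, which encodes the fly BiP, the main ER chaperone of the Hsp70 family, carried T before the core and T after it.

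Peaks with the DRE, TATCGATA (PhKgamma, a subunit of phosphorylase kinase, signal 2305), and with Ohler motif 1, GGTCACAC (Fic, signal 896), are shown next. The DRE or Ohler motif 1 is in capitals. Both stretches also hold ACGTG, Fic on the opposite strand, but in neither is it preceded by G as in the bZIP core.
PhKgamma (chrX:11695000-11695100, plus strand): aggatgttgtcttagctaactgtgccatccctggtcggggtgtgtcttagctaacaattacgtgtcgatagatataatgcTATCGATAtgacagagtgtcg
Fic (chr2L:6424323-6424352, plus strand): atatcagaaacGGTCACACgtagaaaagaa

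Of the 10 strongest peaks, 8 carried neither the core nor the DRE. The summit base and 50 bases to each side are shown for CG14100 and for Calr, which encodes the ER calcium-binding chaperone calreticulin. These peaks, with signals of 7674 and 5825, were among those 10 and held none of the 10 motifs searched. The same was true of the peaks of Ugalt, px, PNPase, ph-p and mRpL41, also among those 10.
CG14100 (chr3L:19590585-19590685, minus strand): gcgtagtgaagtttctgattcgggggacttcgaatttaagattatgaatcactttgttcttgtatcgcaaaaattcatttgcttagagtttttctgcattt
Calr (chr3R:9630934-9631034, minus strand): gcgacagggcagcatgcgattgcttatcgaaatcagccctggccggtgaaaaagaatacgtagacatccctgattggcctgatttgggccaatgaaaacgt

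Single-gene promoters took a smaller excess of peaks than shared promoters. The 2127 peaks made up 29.2% of the list (interval 28.1 to 30.2%), in positions that cover 9.97% of the genome, a 2.93-fold excess. Shared promoters held 18.5% of peaks in 1.48% of the genome, a 12.5-fold excess. Cut to equal length, the lists of replicates 1, 2 and 3 had 2045, 2475 and 1952 peaks of the single-gene kind, 29.6% ± 3.83 of the list (SD, n = 3), with replicate 2 the highest. The excess at shared promoters was 4.27 times that at single-gene promoters, and 4.32, 3.85 and 4.33 times in the replicates (exact sign-flip permutation p = 0.25).

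These peaks lay upstream of the start far more often than downstream. Of the summits, 1779 (83.6%) were upstream, 345 (16.2%, interval 14.7 to 17.9%) downstream and 3 at the start itself. The median position was 109 bp upstream, with the middle 50% between 236.5 and 32 bp upstream. Bins of 100 bp filled up toward the start, from 6.16% of peaks at 401 to 500 bp upstream to 31.9% in the last 100 bp. The first 100 bp downstream held 8.32%, and each bin beyond that held under 3%. Replicate 2 differed here: 22.3% of its single-gene promoter peaks were downstream, against 13.7% in replicate 1 and 15.0% in replicate 3, and its median lay 71 bp upstream, against 125 and 131 bp. The first 100 bp downstream held 15.1% of its peaks, against 5.48% and 5.94% in replicates 1 and 3.

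**Figure D1:**
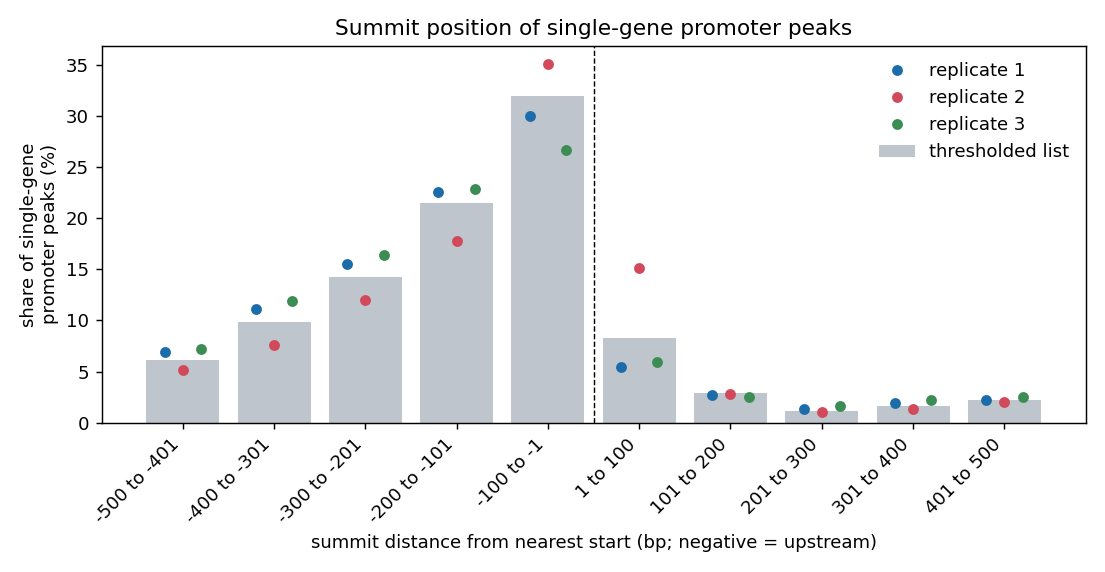
Share of single-gene promoter peaks (y axis, percent) by distance of the summit from the nearest start (x axis, 100 bp bins, negative upstream). Bars show the thresholded list and points the equally long replicate lists. Replicate 2 stands above the other replicates in the bins on either side of the start and below them in every bin farther upstream.

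Median signal was lower next to the start than farther upstream. This signal, a value of the authors' peak caller without a stated scale, had a median of 413 from 100 to 200 bp upstream and 398 from 200 to 300 bp upstream, then 295 in the last 100 bp and 271 in the first 100 bp downstream. Peaks within 100 bp of the start had 0.841 times the median signal of those beyond 300 bp (289 against 343), a ratio of 0.832 ± 0.041 in the replicate lists (SD, n = 3, below 1 in 3 of 3, exact sign-flip permutation p = 0.25). Upstream peaks had a median of 343 and downstream peaks 285, with a ratio of 1.21 ± 0.035 over replicates (above 1 in 3 of 3, exact p = 0.25). Overlap with the 7291 strongest peaks of every replicate was found for 75.8% of upstream and 63.5% of downstream peaks.

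At the limit of 500 bp the values did not step. The outermost included peaks, 500 bp upstream of CG2201 and of tej, had signals of 294 and 193, and the innermost excluded ones, 501 bp upstream of Larp4B and of CG5973, had 215 and 200. The 76 peaks at 451 to 500 bp had a median signal of 362, and the 90 peaks at 501 to 550 bp had 365.

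Upstream position did not always mean sequence between genes. Summits lay between genes in 1099 cases (51.7%), in introns in 591 (27.8%) and in a 5' UTR in 319 (15.0%). Non-coding exons held 61 (2.87%), 3' UTRs 41 (1.93%) and coding exons 16 (0.752%). Of the 1779 upstream peaks, 498 (28.0%) were inside another transcript of the same gene, and 167 (9.39%) lay in the body of another protein-coding gene. Intronic summits were less common at shared promoters (9.55%), where 69.3% lay between genes. In replicate 2, 21.6% of single-gene promoter summits were in a 5' UTR, against 12.0% in replicate 1 and 12.2% in replicate 3.

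Many of these peaks sat at alternative starts. Among peaks at genes with several annotated start positions (n = 1167), 633 (54.2%, interval 51.3 to 57.1%) were nearest to a start other than the most upstream one, and 54.9% ± 0.527 were in the replicate lists (SD, n = 3). Alternative starts make up 66.4% of all starts of these genes. For 540 of the 1167 the most upstream start was over 500 bp from the summit. Peaks nearest an alternative start had a median signal of 347 and those nearest the first start 341, a ratio of 1.05 ± 0.049 over replicates (exact sign-flip permutation p = 0.25). Alternative starts had the summit farther away, with 25.6% within 100 bp against 44.9% for the first start of several and 47.6% for genes with 1 start.

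The strongest examples at alternative starts were at Xbp1, px and PNPase. The Xbp1 peak (signal 11414) was nearest start 2 of 2, but the first was only 24 bp from the summit, so the peak does not separate them. At px, the plexus gene of wing vein patterning, the peak (5383) lay 208 bp upstream of start 3 of 3 and 47758 bp from the first, in an intron. At PNPase, an RNA-degrading enzyme of mitochondria, it lay 85 bp upstream of start 3 of 3 and 799 bp from the first (signal 5030). Ranks, taken among the 6966 thresholded peaks found in all 3 full replicate lists with 1 as the strongest, were 7, 9 and 9 for px and 11, 13 and 8 for PNPase in replicates 1, 2 and 3.

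Of 13945 protein-coding genes, 1857 had a single-gene promoter peak (13.3%), and 1629 of them had exactly 1. There were 228 genes with 2 or more, 138 of them with peaks at more than 1 start. Genes with several starts made up 945 of the 1857 (50.9%), against 26.5% of all protein-coding genes. A gene with several starts offers more positions near a start, and the shares were not adjusted for this. Rtnl1, a reticulon that shapes ER membranes, had the most, 6 peaks at 5 of its 7 starts over 12130 bp. Their signals ran from 325 at the first start, between genes, to 2836 at an intronic start, with the summit 12077 bp from the first start. Ptpmeg2, a protein tyrosine phosphatase, had 5 peaks at 5 of 6 starts with signals of 406 to 1824. The dnc gene, which encodes a cAMP phosphodiesterase, had 5 peaks at 4 of 9 starts with signals of 295 to 1851. Neighbouring peaks of a gene can match the same peak of a replicate, as a pair at Rtnl1 and a pair at dnc did, so they are not independent.

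The bZIP core was far more frequent at downstream than at upstream summits. It was within 50 bp of 45 of 345 downstream summits (13.0%, interval 9.68 to 17.1%) and 46 of 1779 upstream summits (2.59%, interval 1.90 to 3.43%). Replicates 1, 2 and 3 had it at 9.29%, 12.7% and 9.59% of downstream summits, against 1.76%, 3.07% and 2.17% of upstream ones, a difference of 8.18 ± 1.22 percentage points (SD, n = 3, higher downstream in 3 of 3, exact sign-flip permutation p = 0.25). The difference was thus also present in the lists of replicates 1 and 3 by themselves. The first 100 bp downstream had the highest share, 28 of 177 (15.8%, interval 10.8 to 22.0%), and the rest of the 500 bp downstream had 17 of 168 (10.1%). From 100 to 300 bp upstream, a stretch that includes the 100 bp bin of highest median signal (413), 8 of 759 had it (1.05%). Base composition changes along genes, so windows of the same length at all 19607 annotated protein-coding start positions are the background: they held the core in 3.39% of cases 50 bp downstream, 2.81% at 300 bp downstream and 1.59% at 200 bp upstream.

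The full UPR element followed the same order, with 13 of 345 downstream summits (3.77%, interval 2.02 to 6.36%) and 7 of 1779 upstream ones (0.393%, interval 0.158 to 0.809%). The difference was 2.78 ± 0.764 percentage points over replicates (SD, n = 3, exact sign-flip permutation p = 0.25). The core itself lay at a median of 27 bp downstream of the start over the 91 peaks, and 36 of them had it upstream. It was within 25 bp of the summit in 51 of 91.

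**Figure D2:**
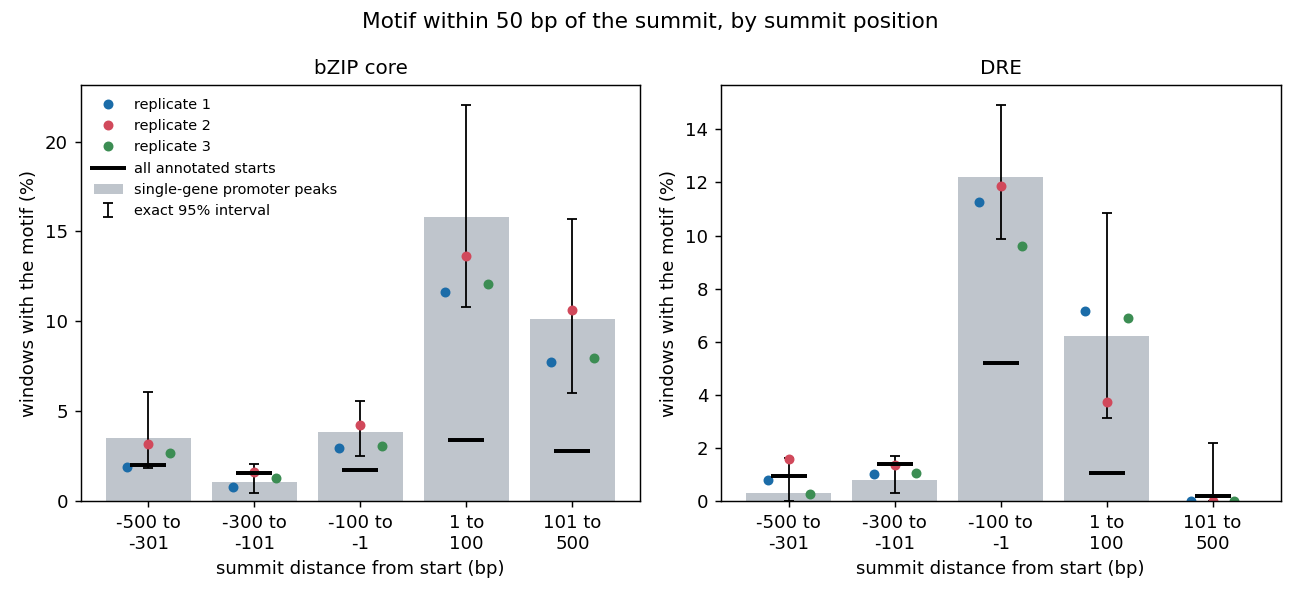
Share of summit windows of 50 bp to each side (y axis, percent) that hold the bZIP core (left) or the DRE (right) by distance of the summit from the start (x axis, bp, negative upstream). Bars with exact 95% intervals are the thresholded list, points the replicate lists and horizontal dashes windows at the middle of each bin for all annotated starts. The core is highest downstream of the start (15.8% and 10.1%) and the DRE in the last 100 bp upstream (12.2%).

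The DRE had another place. It was within 50 bp of 102 summits (4.80%, interval 3.93 to 5.79%), and 83 of these lay in the last 100 bp upstream, where 12.2% of summits had it against 5.19% of windows at all starts. It was rare at alternative starts, with 9 of 633 (1.42%, interval 0.652 to 2.68%), against 27 of 534 at the first start of several (5.06%, interval 3.36 to 7.27%). That difference was -4.61 ± 0.671 percentage points over replicates (SD, n = 3, lower at alternative starts in 3 of 3, exact sign-flip permutation p = 0.25). The bZIP core went the other way by less, with 4.58% at alternative starts and 2.43% at the first of several, 1.20 ± 0.425 points over replicates (exact p = 0.25). It was found at 5.10% of summits of genes with 1 start. The shares of both motifs by kind of start were not matched for distance of the summit. Summits within 100 bp made up 25.6% at alternative starts and 44.9% at the first of several.

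Several subsets of peaks ranked higher in replicate 2 than in replicates 1 and 3, among them those with the core and those next to the start. The 83 ranked peaks with a core had median ranks of 4673, 2086 and 4574 in replicates 1, 2 and 3, whereas the 1940 without it had 3332, 3104 and 3330. Replicate 2 gave the best rank of the 3 to 70 of the 83 (84.3%) and to 859 of the 1940 (44.3%). Among downstream peaks with a core this held for 40 of 41, and among those with a UPR element for 19 of 19. Peaks in the first 100 bp downstream had median ranks of 4976, 3308 and 5297, and this shift was also seen without a core (4859, 3514 and 5256, n = 135). Replicate 2 also gave the best rank to 63 of 93 peaks with the DRE (67.7%, medians of 4413, 3550 and 5133) and to 34 of 38 peaks of cytosolic ribosomal protein genes (89.5%, medians of 2167.5, 1818.5 and 3558.5), so the shift was not confined to peaks with the core. Upstream peaks beyond 100 bp had nearly equal medians of 2754, 2807 and 2755. Ranks within 1 replicate depend on every other peak, so they say nothing of the amount bound. No label separates replicate 2 from the others, and what set it apart was not tested.

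**Figure D3:**
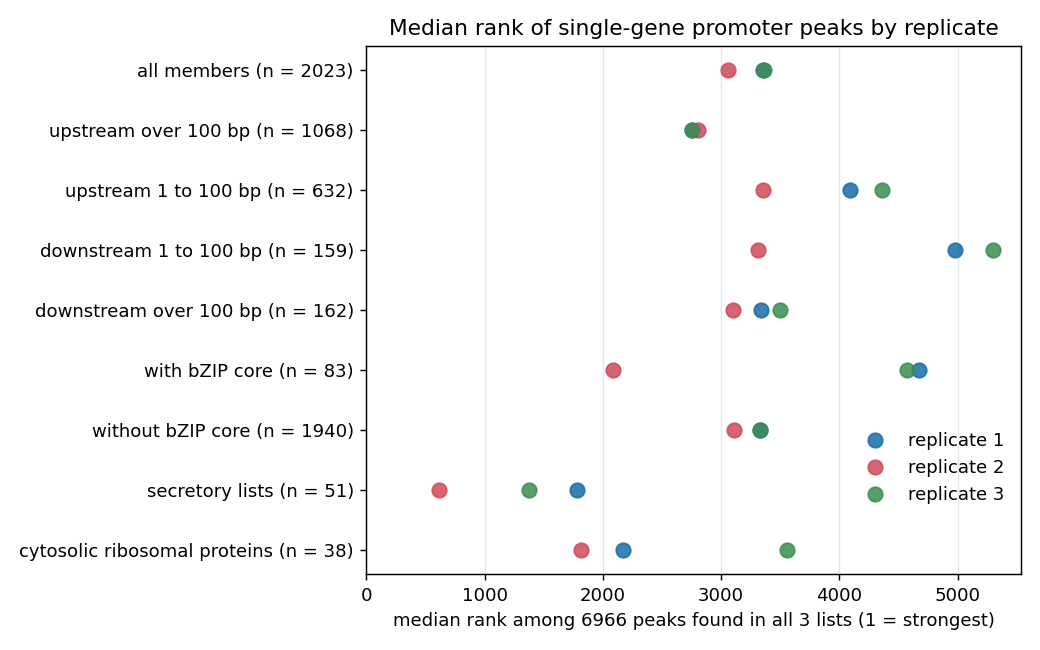
Median rank of single-gene promoter peaks (x axis, 1 = strongest of 6966 peaks found in all 3 lists) by subset (rows) in each replicate (colours). The replicate 2 point lies to the left of the others for peaks near the start, with the core and of secretory genes, and beside them for peaks over 100 bp upstream.

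Genes of the secretory pathway had single-gene promoter peaks at a higher share than all genes, and many of these peaks carried the core. Of 122 genes in the 6 secretory lists, 43 (35.2%, against 13.3% of all genes) had 53 such peaks. The 43 include Calx and Ubc6, which were on the lists but are not secretory pathway genes, and neither had the core. The core was at 25 of the 53 (47.2%) and at 66 of the other 2074 peaks (3.18%), and 20 of the 53 were downstream (37.7%) against 16.2% over all. Their median signal was 559, against 333 over all single-gene promoter peaks. Secretory peaks with the core had median ranks of 1949, 488.5 and 1382.5 in replicates 1, 2 and 3 (n = 24), and secretory peaks without it 1650, 1735 and 1231 (n = 27). Replicate 2 gave the best rank to 23 of those 24 and to 19 of those 27. The 2 sets are not independent, since neighbouring peaks can match the same replicate peak. At Gp93, CaBP1 and SsRbeta a peak without the core had nearly the ranks of the core peak beside it. For Gp93 these were 499, 22 and 520 without the core and 500, 23 and 521 with it. Outside the secretory lists, peaks with the core had medians of 5379, 2767 and 5519 (n = 59).

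Among ER chaperones and folding enzymes, 12 of 19 genes had a single-gene promoter peak (63.2%, interval 38.4 to 83.7%) and 3 more only a shared one. The 12 include Calx (signal 330), which was on the list but encodes a sodium-calcium exchanger and not an ER chaperone. Calr ranked 19, 2 and 18 in replicates 1, 2 and 3, with its summit 133 bp upstream. The strongest Hsc70-3 peak, 92 bp upstream of start 2 in an intron (signal 4194), ranked 64, 3 and 64. The gene's other peaks had signals of 3132, 2398 and 1910. Gp93, the fly GRP94 and the ER member of the Hsp90 family, had its summit 79 bp downstream in the 5' UTR (signal 1994) and ranked 500, 23 and 521. The UPR element shown above begins 88 bp downstream of the Gp93 start. All of these stood higher in replicate 2 than in the other replicates.

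In ER stress signalling, 4 of 10 genes had such a peak (interval 12.2 to 73.8%, which includes the 13.3% of all genes). The strongest was Xbp1 itself, ranked 2, 1 and 2. Its locus is also that of the tagged gene, and any part of an extra copy in the signal was not tested. The peak of crc, the fly ATF4, had a signal of 310 at 309 bp upstream and ranked 3955, 4922 and 3444. Creld followed at 251, but its peak was found in replicate 2 alone, also when the full lists were used. Replicate counts for this list were 3, 6 and 1 of 10.

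Over all protein-coding genes, 13.3% had a single-gene promoter peak and 17.1% (2385) only a shared one. In ER-associated degradation 4 of 16 genes had a single-gene promoter peak and 7 (43.8%) only a shared one. Der-1, a Derlin of the ER membrane, led with 981 at 25 bp downstream and ranked 1485, 198 and 1224. Ubc6, a ubiquitin-conjugating enzyme (646, 50 bp upstream), ranked 1650, 1311 and 1231. It is counted in the 4, but the fly gene is the Rad6 homologue and not the counterpart of the yeast degradation enzyme of that name. TER94, the ATPase that extracts proteins from the ER (385, with a UPR element), ranked 3333, 2200 and 4972. In the translocon list 7 of 21 genes (33.3%) had a single-gene promoter peak and 10 (47.6%) only a shared one. TRAM, which aids the entry of nascent chains, had a signal of 2102 and ranks of 120, 120 and 130. Trp1 (1779) ranked 197, 177 and 146, and neither peak held a core. Sec61beta, a subunit of the channel, had a signal of 948, a UPR element and ranks of 1034, 486 and 674.

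In N-glycosylation 5 of 23 genes (21.7%, against 13.3% of all genes) had a single-gene promoter peak and 10 (43.5%, against 17.1%) only a shared one. Alg3, a mannosyltransferase (2127), held a DRE and ranked 110, 78 and 303. OstDelta, an oligosaccharyltransferase subunit (1590, 64 bp downstream, with the core and a DRE), ranked 492, 82 and 488. GCS2alpha, a glucosidase II subunit (282, with the core), ranked 6254, 2189 and 5934. Of 33 COPII, COPI and p24 genes, 11 (33.3%) had a single-gene promoter peak and 16 (48.5%) only a shared one. The coatomer subunit deltaCOP (1041, no core) ranked 669, 612 and 478. The cargo receptor gene p24-1 (1022, with the core) ranked 1087, 243 and 942, and CG9175, listed under its synonym Sec12 (1022, with a DRE), ranked 1426, 183 and 995.

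**Figure D4:**
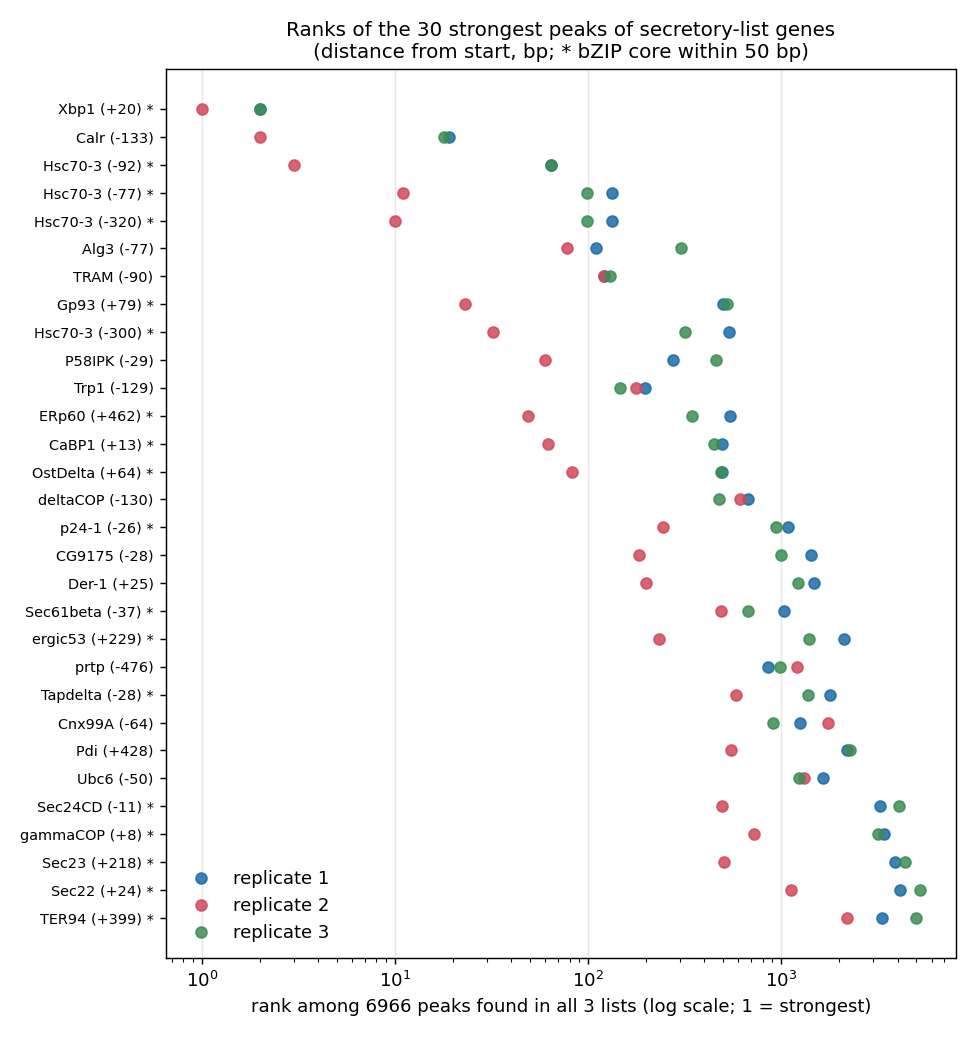
Rank in each replicate (x axis, log scale, 1 = strongest) of the 30 strongest single-gene promoter peaks of genes in the secretory lists. Row names give the gene and the summit's distance from the start in bp. Stars mark peaks with the bZIP core within 50 bp. The replicate 2 point lies far to the left for starred peaks such as Hsc70-3, Gp93 and OstDelta and also for unstarred ones such as Calr, P58IPK and Der-1, whereas TRAM, Trp1 and deltaCOP have the 3 points close together.

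The ribosomal protein lists differed in the kind of promoter peak they had. Cytosolic ribosomal proteins had single-gene promoter peaks at 41 of 85 genes (48.2%, interval 37.3 to 59.3%), led by RpL23A (1464) and RpL30 (791). Mitochondrial ribosomal proteins had them at 4 of 73 (5.48%, interval 1.51 to 13.4%) and shared promoter peaks alone at 40. The strongest of the 4, mRpL41, had a signal of 4611 at 145 bp upstream and ranks of 13, 17 and 14. Only 17.8% of the mitochondrial ribosomal protein genes have a start over 1000 bp from the starts of other protein-coding genes, against 62.9% of all genes. Among genes with such an isolated start, 18.8% of all (1649 of 8770) had a single-gene promoter peak, and 2 of 13 mitochondrial and 28 of 36 cytosolic ribosomal protein genes did. The core was at 3 of the 43 peaks of cytosolic ribosomal protein genes.

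Glycolysis had 8 of 13 genes with a single-gene promoter peak (61.5%, interval 31.6 to 86.1%), and 8 in each replicate list. Gapdh2, glyceraldehyde-3-phosphate dehydrogenase (2032), ranked 161, 80 and 207, and Eno, enolase (1505, at start 3 of 3), ranked 263, 241 and 329. Of 12 genes for nucleotide-sugar and ion transport, 5 had such a peak. Ugalt, the UDP-galactose transporter of the Golgi, had a signal of 6383 and ranks of 4, 7 and 4, meigo, a transporter of the ER (1268), had 663, 159 and 694, and the calcium channel gene Orai had a signal of 428. Phospholipid and sterol regulation had 7 of 20, led by the phosphatidate phosphatase Lpin (1367) and the ethanolamine kinase eas (551). Near the 13.3% of all genes were the proteasome, with 5 of 40 (12.5%), led by Rpn10 (366) and Rpn11 (330), and autophagy, with 4 of 23 (17.4%), led by Atg13 (885) and the lipid kinase subunit Vps15 (675).

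Patterning genes and tissue markers, most of which have isolated starts, ranged from none to 4 of 15 genes with a single-gene promoter peak. Embryonic patterning had 5 of 39, led by bcd, the anterior determinant (979), and ush, a cofactor of GATA factors (405), which is 12.8% against the 18.8% of isolated genes. Salivary gland and secretory cell markers had 2 of 13, CrebA, a bZIP activator of secretory genes (487), and fkh, a forkhead factor of the salivary gland (383). The fkh peak ranked 5082, 1080 and 6460. Muscle markers had 4 of 15, led by sls, a titin-like protein (1168), and the tropomyosin Tm1 (492). Neuronal markers had 1 of 15, elav, an RNA-binding protein (2046, ranks of 122, 153 and 107), whose summit lay in the gene arg. None of 17 fat body and hemocyte markers (upper exact limit 19.5%) and none of 119 chemoreceptors (3.05%) had one.

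**Figure D5:**
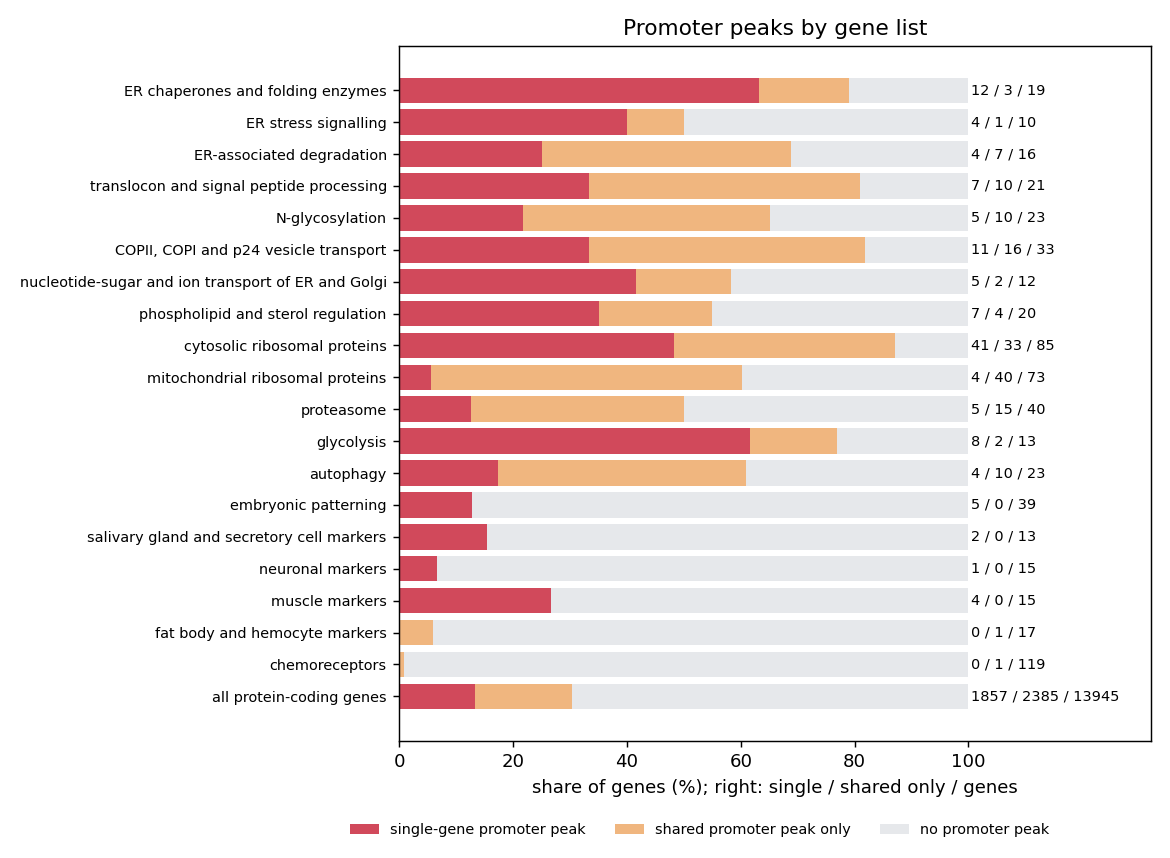
Share of genes (x axis, percent) with a single-gene promoter peak (red), with a shared promoter peak only (orange) and with no promoter peak (grey) by gene list, with the counts at the right. Cytosolic and mitochondrial ribosomal protein genes differ more in red (48.2% and 5.48%) than in orange (38.8% and 54.8%).

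Compared with shared promoters, single-gene promoter peaks had more cores and fewer DREs. The core was at 4.28% of single-gene and 1.70% of shared promoter summits, a difference of 1.89 ± 0.628 percentage points over replicates (SD, n = 3, higher in 3 of 3, exact sign-flip permutation p = 0.25). Within the first 100 bp downstream it was at 15.8% of single-gene and 3.59% of shared promoter summits (6 of 167). In the rest of the 500 bp downstream it was at 10.1% of single-gene and 12.9% of shared promoter summits (4 of 31). Distal summits had it in 1.57%, windows centred 500 bp to either side of the single-gene promoter summits in 2.54% and 2.21%, and windows at all starts in 1.42%. This last value depended on where the windows were centred. In the position bins it ran from 1.59% at 200 bp upstream of all starts to 3.39% at 50 bp downstream. The DRE was at 4.80% of single-gene, 6.44% of shared promoter and 0.210% of distal summits. The site of the GAGA factor, GAGAGAG on either strand, was at 1.93% of single-gene and 0.296% of shared promoter summits, but windows at all starts had it in 4.37%. Ohler motif 1 was at 2.68% of single-gene and 3.11% of shared promoter summits, against 1.06% of windows at all starts. Windows centred nearer the start held it more often, in 2.63% at 50 bp upstream and 2.45% at 50 bp downstream of all starts. Single-gene promoter summits had it in 5.01% of the last 100 bp upstream and 7.91% of the first 100 bp downstream. The mean GC content of the windows was 38.0% at single-gene, 35.5% at shared promoter and 33.3% at distal summits, and its part in these shares was not tested.

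The motifs differed in the signal of their peaks. Peaks with the DRE had a median signal of 257 and those without 335, a ratio of 0.859 ± 0.051 over replicates (SD, n = 3, exact sign-flip permutation p = 0.25). With TATAAA on either strand, found at 15.7% of summits and 16.6% of windows at all starts, the medians were 373 with and 325 without, a ratio of 1.15 ± 0.051 (exact p = 0.25). Peaks with the core had a median of 307 and those without 333, and the replicate ratios of 1.06, 1.15 and 0.895 lay on both sides of 1. Of the 10 strongest single-gene promoter peaks, 2 had the core, those at Xbp1 and Hsc70-3. Others of the 10 were at ph-p, a Polycomb group gene (4700, ranks of 12, 21 and 10), and CG18549 (3758, ranks of 20, 24 and 29, with TATAAA).

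As a class, single-gene promoter peaks were weaker than shared promoter peaks. Their median signal was 333, against 407 at shared promoters and 291 at distal sites, and the ratio to shared promoters was 0.810, 0.846 and 0.810 in the replicates (below 1 in 3 of 3, exact sign-flip permutation p = 0.25). They were also found by fewer replicates. Of the 2127 peaks, 1569 (73.8%, interval 71.8 to 75.6%) were overlapped by all 3 replicate lists cut to equal length, against 81.3% at shared promoters, 70.1% at distal sites and 73.3% over all 7291 peaks. Single-gene promoter peaks were thus near the share of the whole list. Of those missing 1 replicate, 63 lacked replicate 1, 150 replicate 2 and 152 replicate 3, whereas for distal peaks 590 of 849 lacked replicate 2. A further 136 were found in replicate 2 alone, against 37 in replicate 1 alone and 15 in replicate 3 alone. The share went with signal: 99.7% of the peaks in the strongest 25% of the list were in all 3, and 20.8% of those in the weakest 25%.

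The 3 peaks whose rank differed most between replicates were in 5' UTRs, downstream of a start. An isoQC peak, at a gene for a glutaminyl cyclase of the Golgi, had a signal of 174 and ranks of 609, 375 and 6929. Its values in replicates 1 and 2 are those of a stronger isoQC peak beside it (signal 1127, ranks of 608, 374 and 555), which the same replicate peaks overlap. A jvl peak had 353 and ranks of 6806, 1146 and 6806, and a CG6785 peak 321 and ranks of 5641, 1155 and 6768. The rank is that of the strongest replicate peak it overlaps, and 107 of the 2127 peaks overlap a stronger thresholded peak.

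Chromosome arms had similar shares. Single-gene promoter peaks made up 27.2% to 32.5% of thresholded peaks on the 5 large arms, with median signals of 324 to 343, and 18 of 37 on chromosome 4. A start of a non-coding gene was also within 500 bp at 152 single-gene promoter peaks (7.15%), mostly of non-coding RNA genes (128), against 1.63% at shared promoters. The next protein-coding gene started at a median of 2682 bp from the summit, and for 334 peaks it lay at 501 to 1000 bp.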

How the data were processed

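ChIP-seq of Xbp1-GFP in 3 biological replicates of whole embryos was used as deposited peak lists in the dm6 build. The text lists that the authors deposited name a control alignment as input to peak calling, and name the pooled and 3 replicate lists as sources of the thresholded list. Which aligner and peak caller were used is not given in the sources used here. Each deposited peak carries a signal value computed by the authors' caller on an unstated scale, and the authors' −log10 q-value. Signal was compared only within a list.

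Here a summit was the peak's start plus its summit offset. Starts were the transcript 5' ends of 13945 protein-coding genes in Ensembl release 115 (BDGP6.54). A peak was of the single-gene kind when starts of exactly 1 gene lay within 500 bp. Replicate lists were limited to their 7291 strongest peaks and overlap meant 1 bp or more. Ranks were taken among 6966 peaks found in all 3 full lists. Motifs were exact matches on either strand within 50 bp of the summit. Intervals are Clopper-Pearson, cover counting error only and ignore depth, which is unknown. Tests were exact two-sided sign-flip permutations over 3 replicates, without adjustment, since none can pass 0.05.

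The lists hold 310 gene names, of which 280 were found by symbol, 18 by synonym and 12 not at all. The peaks, lists and motifs were chosen with earlier results of these data known, and motif shares by position, letters beside the core and ranks by subset were added after seeing the data. Genes were named by rule: the 10 strongest peaks, the 3 strongest of each secretory list and up to 2 or 3 of the others, the 3 genes with most peaks, the 3 strongest alternative starts, the 3 widest rank spreads and the peaks nearest the limit. Fixed windows and planted motifs were tested on simulated data. Python 3.11.15, NumPy 2.4.6, pandas 2.3.3, SciPy 1.17.1 and Matplotlib 3.10.9 were used.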

Additional observations from a re-analysis of the deposited data

How the results depend on the processing

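Of 93 alternative values for 9 results, 60 moved by less than the spread between replicates and none reversed. With a promoter distance of 200 bp the median position was -68 bp, the DRE share 7.21%, the alternative-start share 41.0% and the signal ratio to shared promoters 0.747. With 1000 bp these shares were 3.50% and 59.2%, the ratio 0.866 and the downstream share 23.8%. With the first start of each gene only, the DRE share was 5.96%. With the stronger 50% of peaks there were 1116 single-gene promoter peaks, 97.8% of them in all replicates, with 3.49% DRE, 55.1% at alternative starts and a ratio of 0.932. With pooled peaks of q-value 0.05 or less there were 3273, with 55.6% at alternative starts, 21.7% downstream and a ratio of 0.739. Counting non-coding genes gave 55.7% at alternative starts. Motif windows of 25 and 100 bp gave the core at 2.02% and 6.96% and the DRE at 2.07% and 8.04%. An overlap of 50% gave 66.3% in all replicates. Each replicate was also left out in turn by keeping only thresholded peaks overlapped by the lists of both other replicates. The thresholded list itself was still the one from all replicates, so this is a stricter overlap filter and not a new peak call. It kept 76.7% to 80.9% of the single-gene promoter peaks. These gave 3.72% to 4.24% for the DRE, 54.1% to 55.1% for alternative starts and a signal ratio to shared promoters of 0.864 to 0.872. The cause of these shifts was not tested. Depth is unknown, the control was not analysed here, and 3 replicates of 1 line limit every comparison.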
